A study of Mus musculus with 30 samples.

Results

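The dopamine and adrenergic receptor genes Drd1, Drd2, Drd5, Adra1a, Adra1b, Adra1d, Adra2a, Adra2c and Adrb1 were followed in the mouse hippocampus after post-weaning social isolation (SI). They are 9 of the 17477 genes in the count table. They were taken by symbol from its Ensembl gene IDs. Bulk RNA-seq was done on the hippocampus of 30 adult C57 BL/6J mice, with 1 library per animal. The groups were 8 SI females and 7 group-housed (GH) females, which are animals 41 to 79, and 7 SI males and 8 GH males, which are animals 1 to 39. SI mice were housed alone from weaning and GH mice shared cages. All 4 groups are of the same strain with no genetic change, and poly(A) RNA was taken from the whole dissected region.

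Dopamine and noradrenaline reach the hippocampus in axons whose cell bodies lie elsewhere in the brain, so the receptors are made locally while most of the enzymes that make the transmitters are not. The D1-like receptors Drd1 and Drd5 act through Gs and raise cyclic AMP, and the D2-like receptor Drd2 acts through Gi/o and lowers it. Among the adrenergic receptors, alpha-1 subtypes act through Gq and phospholipase C, alpha-2 subtypes through Gi/o, and beta receptors through Gs. These receptors tune excitability and synaptic plasticity, and are studied for their part in arousal, novelty and memory.

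Levels are given in CPM, the counts of a gene scaled to a common library size. Total counts per library ranged from 18809307 to 100844898. SI males 25, 33 and 39 stood apart from the other 27 mice. Log2 CPM was set against the mean of the 30 mice, and the median over genes with transcripts of at most 1936 bases was subtracted from that over genes with transcripts of at least 4447 bases. In these animals the result was -1.23 to -0.97. It lay between -0.31 and 0.43 in the other 27 mice. Differences of the receptors and of marker sums in males that rest on these 3 animals are given with and without them. For single marker and pathway genes in males, Log2FC is given only with them. The markers of hippocampal neurons were present in every library, with summed levels of 230.0 to 435.0 CPM for 6 dentate granule cell genes, 358.0 to 680.0 CPM for 4 CA1 genes and 242.0 to 377.0 CPM for 6 CA3 and mossy cell genes.

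Promoter sequences are shown for Drd2, Drd5 and Adrb1. Drd2 and Drd5 are the dopamine receptors with an unadjusted p under 0.05 between SI and GH mice in one sex. Adrb1 was the only member with a called difference in the main edgeR fits below. Some other settings, or fits with 1 mouse left out, called Adra1a, Drd5 or Drd2, and some settings did not call Adrb1. Each run is the 150 bases before the RefSeq start site, on GRCm38.p6, read 5′ to 3′ on the coding strand. Capitals mark a GC box (GGGCGG on either strand) or the core of a cyclic AMP response element (TGACG on either strand).
Drd2, chr9:49340253-49340402, plus strand: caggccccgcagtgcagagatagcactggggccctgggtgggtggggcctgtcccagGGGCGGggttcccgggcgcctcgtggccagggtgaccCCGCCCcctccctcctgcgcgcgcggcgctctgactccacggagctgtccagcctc
Drd5, chr5:38319359-38319508, plus strand: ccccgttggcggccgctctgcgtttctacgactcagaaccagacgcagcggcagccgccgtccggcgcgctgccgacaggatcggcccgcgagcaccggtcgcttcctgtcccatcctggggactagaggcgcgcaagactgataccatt
Adrb1, chr19:56721967-56722116, plus strand: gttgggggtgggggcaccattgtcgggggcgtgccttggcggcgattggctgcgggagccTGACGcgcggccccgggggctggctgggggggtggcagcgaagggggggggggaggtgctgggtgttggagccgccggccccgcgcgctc
The Drd2 window held 2 GC boxes, the Adrb1 window 1 cyclic AMP response element core, and the Drd5 window neither. Over 32851 mouse promoter windows of this length, 28.6% held a GC box and 13.3% the response element core. All 3 windows were rich in C and G (76% for Drd2, 68% for Drd5 and 78.7% for Adrb1, against a median of 54% over all windows). The RefSeq table used here matched 7 of the 9 members, which leaves out Adra1a and Adra1d.

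On the older build NCBIM37 (GENCODE vM1), which gives the gene models used here, all 9 are protein-coding genes. Drd5 (chromosome 5, 38710748 to 38713549), Adra2c (chromosome 5, 35621215 to 35624410), Adra2a (chromosome 19, 54119672 to 54123472) and Adrb1 (chromosome 19, 56796862 to 56799352) each have a single exon. Drd1 (chromosome 13, 54146555 to 54151027) and Adra1d (chromosome 2, 131371586 to 131388021) have 2 exons in their longest coding transcript. Adra1a (chromosome 14, 67254088 to 67390005) has 3, Adra1b (chromosome 11, 43588108 to 43714712) has 5 and Drd2 (chromosome 9, 49148732 to 49216282) has 8.

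All 9 receptors were measured above 1 CPM in each of the 30 mice, so 0 members fell below that level. The lowest value was 1.49 CPM for Adra1a in SI male 25, which rests on 35 counts. In mean CPM per kilobase of the longest coding transcript, over all 30 mice, the order was Adra1d (32.7), Adra2c (14.6), Adrb1 (9.66), Adra2a (4.95), Drd5 (3.79), Adra1b (2.04), Drd1 (1.18), Adra1a (1.17) and Drd2 (1.11). Each of the upper 6 was above the next in at least 29 of 30 mice. The lowest 3 did not differ beyond their spread, since Drd1 was above Adra1a in 15 of 30 mice and Adra1a above Drd2 in 19 of 30. Drd5 was thus the more abundant of the 2 D1-like receptors per length, and Adra1d the most abundant alpha-1 subtype. In CPM, not divided by length, the most abundant member, Adra1d, lay above 80.0% of all genes in the table, and Drd2 above 27.4%.

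Other receptors of these families were low. Drd3 was not among the genes of the table. Drd4 had 0.205 CPM and Adra2b 0.326 CPM over the 30 mice, and Drd4 did not exceed 0.433 CPM in any mouse. The beta receptor Adrb3 had 1.05 CPM on average. None of those tested was called in either sex by edgeR, and 0 had an unadjusted p under 0.05.

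**Figure D1:**
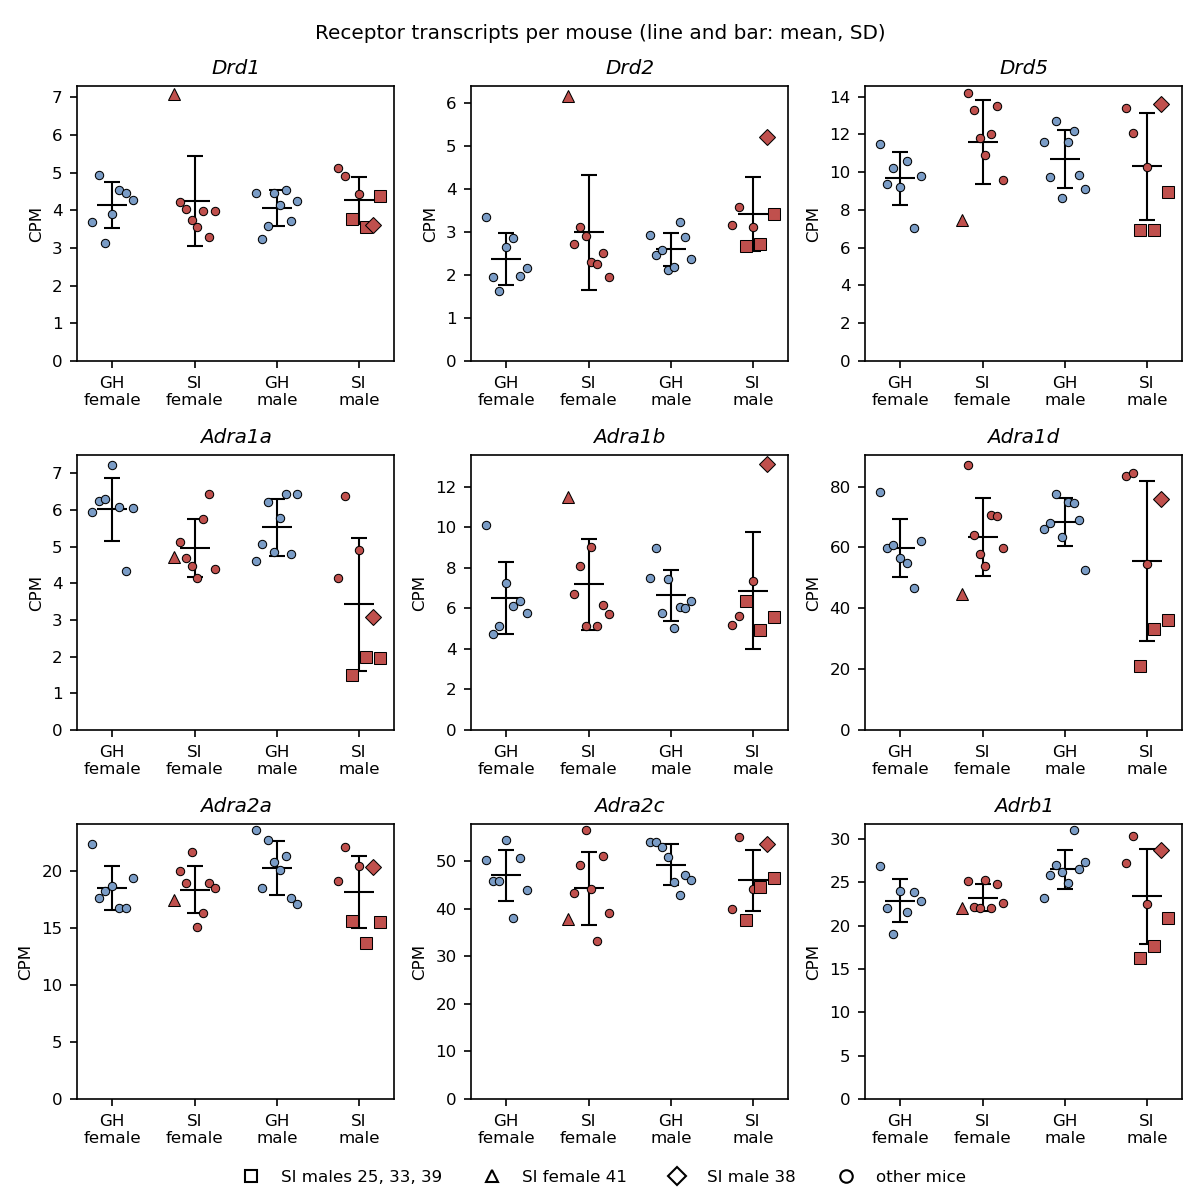
Receptor transcripts in CPM for each of the 30 mice, by group, with SI mice in red and GH mice in blue; the horizontal line is the group mean and the bar its SD. The squares, SI males 25, 33 and 39, form the low end of Adra1a (1.49 to 1.99 CPM) and Adra1d (21.0 to 36.1 CPM), while SI female 41 (triangle) and SI male 38 (diamond) are high for Drd2 and Adra1b.

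In females, SI against GH was tested to ask whether isolation changed the level of these receptors. None of the 9 was called at an adjusted p under 0.05 by edgeR's quasi-likelihood test, with 624 of 16026 genes (3.89%) called in the same fit, 0.961% higher and 2.93% lower. An unadjusted p under 0.05 was found for 2 of the 9 members, Drd5 higher and Adra1a lower, beside 20.2% of all genes tested, 9.29% higher and 11% lower. The median Log2FC of the members was 0.02 and that of all genes 0.01, and 6 members had a positive and 3 a negative value.

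Adra1a, an alpha-1 receptor that couples to Gq, was the member with the lowest p in females. SI females had from 4.13 to 6.44 CPM with a median of 4.69 CPM, and GH females from 4.34 to 7.21 CPM with a median of 6.07 CPM. Only SI female 53 was below every GH female, the other 7 lay within the GH range, and 1 of the 8 was above the GH median. Means were 4.96 ± 0.779 CPM (SD, n = 8) and 6.02 ± 0.852 CPM (SD, n = 7). The fitted Log2FC was -0.24 (SE 0.0789), with an adjusted p of 0.0945 from edgeR. The difference of mean log2 CPM, which carries no surrogate variables, was -0.28 (two-sided exact permutation p = 0.0325, unadjusted over 9 members). Other settings of the same comparison crossed the threshold, namely DESeq2 with the same surrogate variables, limma-voom with quality weights, and edgeR after each library's length and GC trend was removed. Over the settings the adjusted p of Adra1a ran from 0.0256 to 0.342. Of the fits without surrogate variables, limma-voom called it, while those by edgeR and DESeq2 did not.

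For Drd5, the D1-like receptor most abundant here, the medians were 11.9 CPM in SI females (range 7.46 to 14.2) and 9.81 CPM in GH females (range 7.02 to 11.5). The highest GH female was exceeded by 5 of the 8 isolated females, while SI female 41 was near the bottom of the GH range. The Log2FC was 0.25 (SE 0.0962) with an adjusted p of 0.151 from edgeR. Left without SI female 41, the fit gave a Log2FC of 0.30 and an adjusted p of 0.0325 by the same edgeR test. The difference of mean log2 CPM was 0.25 (two-sided exact permutation p = 0.103).

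SI female 41 also decided the values of the other dopamine receptors. She had 7.1 CPM of Drd1 and 6.16 CPM of Drd2, where the other 7 SI females had 3.28 to 4.23 CPM and 1.95 to 3.12 CPM. The same mouse had the highest summed levels of the striatal markers (555.0 CPM over 10 genes) and of the thalamic markers (211.0 CPM over 5 genes) among the 30 mice. The part of these neighbouring regions in the receptor values was not tested. The striatal sum weighs most on Gng7 and Ppp1r1b (218.0 and 108.0 CPM on average in SI females), where Adora2a had 3.16 CPM. Drd2 had a Log2FC of 0.25 (SE 0.229) with all females and of 0.05 without SI female 41. Drd1 had 0.02 (SE 0.153) with all females and -0.11 without her. Neither gene was called in either fit.

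The adrenergic members other than Adra1a had small fitted differences in females. Adra2a and Adra2c, which inhibit transmitter release as Gi/o-coupled autoreceptors and also act on target cells, had Log2FC of -0.00 (95% interval -0.15 to 0.14) and -0.06 (-0.26 to 0.15). Adrb1, which raises cyclic AMP through Gs, had 0.00 (-0.10 to 0.11). Adra1d had 0.07 (-0.05 to 0.18), and Adra1b 0.03 with a wider interval from -0.29 to 0.34. For Adrb1 and Adra2a the intervals leave out changes of the size fitted for Adra1a, and for Adra1b they do not.

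**Figure D2:**
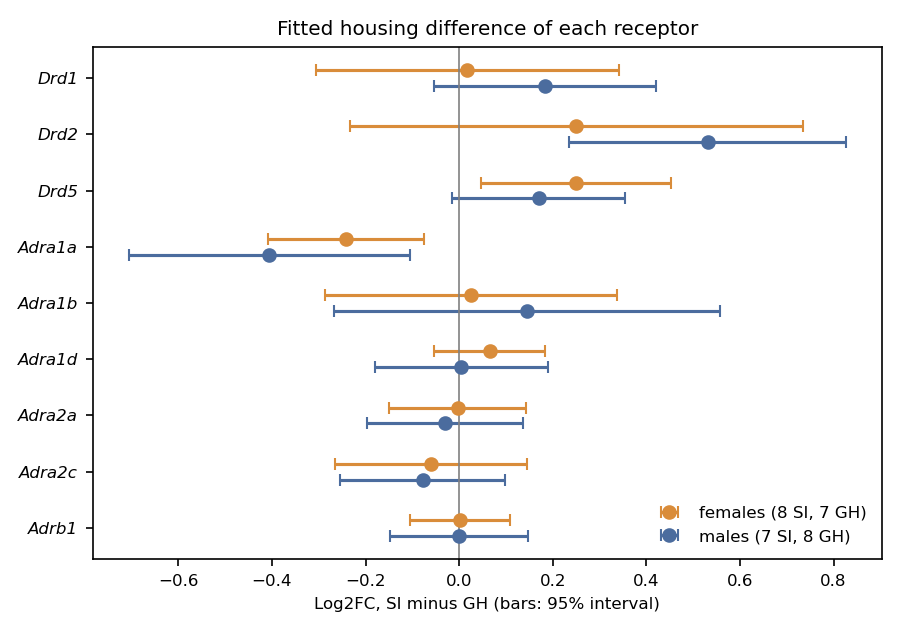
Fitted Log2FC of SI minus GH for each receptor in females (orange) and males (blue), with 95% intervals from edgeR. Adra1a lies below 0 in both sexes (-0.24 and -0.41) and Drd2 and Drd5 above (Drd5 in males falls below 0 without surrogate variables), while Adra1d, Adra2a, Adra2c and Adrb1 lie within 0.08 of 0.

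In males, 0 of the 9 members were called, and 0 of 15833 genes (0%) were called in the same edgeR fit, with 2060 genes (13%) at an unadjusted p under 0.05. Of the members, Drd2 was higher and Adra1a lower at that unadjusted bar, which 5.63% of all genes passed as higher and 7.38% as lower. DESeq2 without surrogate variables called 304 genes in males, 0 of them members. These counts changed with 1 library, and without SI male 27 edgeR called 2414 genes and 2 members, Drd2 (Log2FC 0.58, adjusted p = 0.0143) and Adra1a (-0.62, adjusted p = 0.0117). The median Log2FC was 0.00 for the members and -0.00 for all genes.

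Drd2, the Gi/o-coupled dopamine receptor, was the member with the lowest p in males. SI males ranged from 2.67 to 5.2 CPM with a median of 3.17 CPM, and GH males from 2.12 to 3.24 CPM with a median of 2.52 CPM. All 7 SI males were above the GH median and 3 were above the highest GH male, so the groups overlapped. Means were 3.41 ± 0.856 CPM (SD, n = 7) and 2.59 ± 0.389 CPM (SD, n = 8). The Log2FC was 0.53 (SE 0.14) with an unadjusted p of 0.00146 and an adjusted p of 0.295 from edgeR. The difference of mean log2 CPM was 0.37 (two-sided exact permutation p = 0.0121, unadjusted). It was 0.51 without SI males 25, 33 and 39 (two-sided exact permutation p = 0.00606).

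SI male 38 held the highest value, 5.2 CPM, and without it the fitted Log2FC of Drd2 was 0.31. The same animal had 13.1 CPM of Adra1b, where the other 6 SI males had 4.92 to 7.34 CPM, and ranked the second of 30 mice for the thalamic markers (198.0 CPM). Thalamic markers summed to 78.2 to 198.0 CPM in SI males and to 77.9 to 101.0 CPM in GH males, a difference of 0.38 in mean log2 (two-sided exact permutation p = 0.0407, adjusted p = 0.112 over 22 tests of marker lists). Of the 5 thalamic genes, 4 had an unadjusted p under 0.05 in males, all higher in SI. The striatal list, which holds genes that mark Drd1 and Drd2 neurons elsewhere, summed to 294.0 to 462.0 CPM in SI males and 423.0 to 451.0 CPM in GH males, a difference of -0.22 in mean log2 (two-sided exact permutation p = 0.0228, adjusted p = 0.0742). Without SI males 25, 33 and 39 the difference was -0.05 for the striatal sum (two-sided exact permutation p = 0.349) and 0.42 for the thalamic sum (two-sided exact permutation p = 0.0606). Gene by gene, the striatal list had a median Log2FC of 0.15 in males, with 5 genes positive and 4 negative, and with 3 higher and 1 lower at an unadjusted p under 0.05. The sum weighs genes by level, and Gng7 alone had 179.0 CPM in SI males and 235.0 CPM in GH males on average. Of this list, Isl1 was at 0 in at least 1 SI mouse of each sex, and no thalamic gene was at 0 in any mouse. The part of either region in the Drd2 difference was not tested. In bulk tissue, fewer cells of a type and less RNA per cell cannot be told apart.

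**Figure D3:**
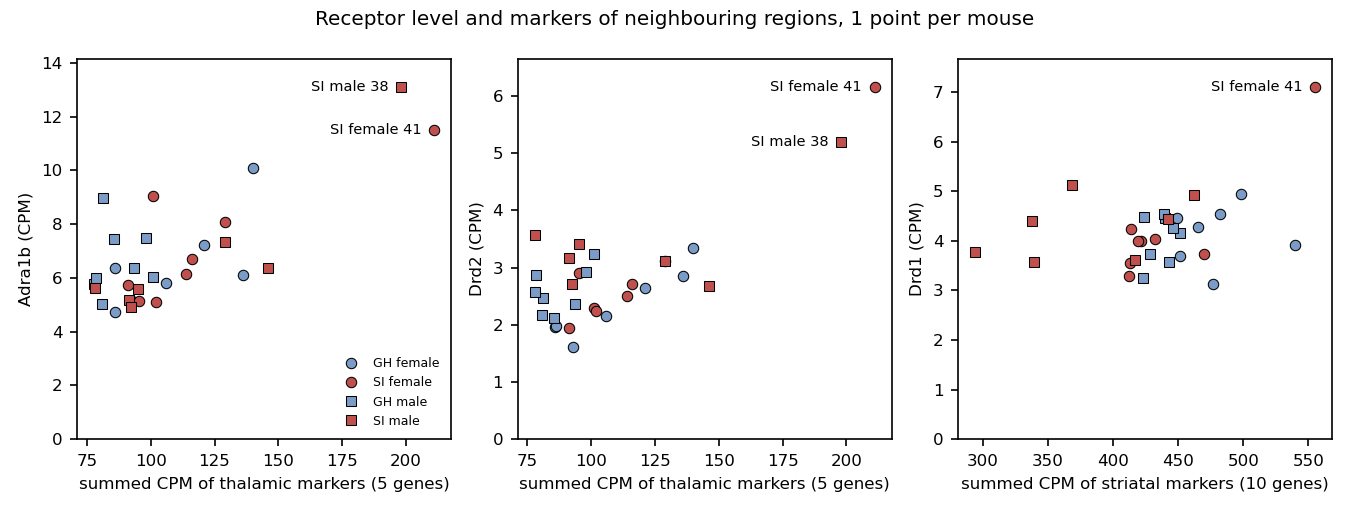
Adra1b and Drd2 (CPM) against the summed CPM of 5 thalamic markers, and Drd1 (CPM) against that of 10 striatal markers, with 1 point per mouse, circles for females and squares for males. SI female 41 and SI male 38 have the highest thalamic sums (211.0 and 198.0 CPM) together with the highest Drd2 (6.16 and 5.2 CPM), and SI female 41 has the highest striatal sum (555.0 CPM) and Drd1 (7.1 CPM).

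In proportion to its level, Adra1a had the largest difference of the 9 receptors between the unadjusted means in males. SI males ranged from 1.49 to 6.37 CPM with a median of 3.09 CPM, and GH males from 4.62 to 6.44 CPM with a median of 5.43 CPM. Of the 7 SI males, 5 were below the lowest GH male, and 1 was above the GH median. The 3 males that stood apart had 1.81 ± 0.279 CPM (SD, n = 3), and the other 4 had 4.63 ± 1.38 CPM (SD, n = 4). The fitted Log2FC was -0.41 (SE 0.142) with an adjusted p of 0.319 from edgeR. In mean log2 CPM the difference was -0.85 (two-sided exact permutation p = 0.00839, unadjusted), and -0.29 without SI males 25, 33 and 39 (two-sided exact permutation p = 0.139). With those 3 left out, the fit with surrogate variables gave a Log2FC of -0.16 and that without them -0.26.

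Adra1d, which also couples to Gq, set the same 3 animals apart. SI males ranged from 21.0 to 84.6 CPM, with 21.0, 33.3 and 36.1 CPM in SI males 25, 33 and 39 and 54.6 to 84.6 CPM in the other 4, and GH males from 52.6 to 77.6 CPM. The mean was 30.1 ± 8.06 CPM (SD, n = 3) in the 3 animals, 74.6 ± 13.9 CPM (SD, n = 4) in the other SI males and 68.3 ± 7.99 CPM (SD, n = 8) in GH males. With 2 surrogate variables in the fit the Log2FC was 0.00 (95% interval -0.18 to 0.19). Without surrogate variables it was -0.30, with an adjusted p of 0.383 from edgeR. The difference of mean log2 CPM of Adra1d was -0.45 (two-sided exact permutation p = 0.138), and 0.11 without the 3 animals (two-sided exact permutation p = 0.416). Drd5, Adra2a and Adrb1 had the same layout, with means of 7.6, 14.9 and 18.3 CPM in the 3 animals and of 12.4, 20.5 and 27.2 CPM in the other 4 SI males. Drd2 and Drd1 did not show it as strongly, at 2.93 against 3.77 CPM and 3.91 against 4.52 CPM.

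Fitted values for the rest of the members in males had intervals that include 0. Drd1 had a Log2FC of 0.18 (95% interval -0.05 to 0.42), Drd5 0.17 (-0.01 to 0.36) and Adra1b 0.15 (-0.27 to 0.56). The sign of Drd5 turned without surrogate variables (-0.045), as in the difference of mean log2 CPM, which was -0.09 (two-sided exact permutation p = 0.603) and 0.21 without SI males 25, 33 and 39 (two-sided exact permutation p = 0.119). Adra2a, Adra2c and Adrb1 had -0.03, -0.08 and -0.00, with intervals no further from 0 than -0.25 on the lower side and 0.15 on the upper. Differences of mean log2 CPM, which carry no surrogate variables, were -0.17 for Adra2a and -0.21 for Adrb1 (two-sided exact permutation p = 0.152 and 0.133). Without SI males 25, 33 and 39 they were 0.03 for each (two-sided exact permutation p = 0.778 and 0.709).

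Whether isolation acted differently in the sexes was tested as an interaction over all 30 mice. Of the 9 members 0 were called, as were 0 of 16391 genes (0%) by edgeR, with 0 members and 7.48% of genes (4.94% higher and 2.54% lower) at an unadjusted p under 0.05. The difference of Log2FC, females less males, was 0.09 for Adra1a (95% interval -0.19 to 0.37), -0.18 for Drd2 (-0.71 to 0.35) and 0.04 for Drd5 (-0.24 to 0.33). For Drd2 in particular, intervals of this width leave differences in either direction possible.

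**Figure D4:**
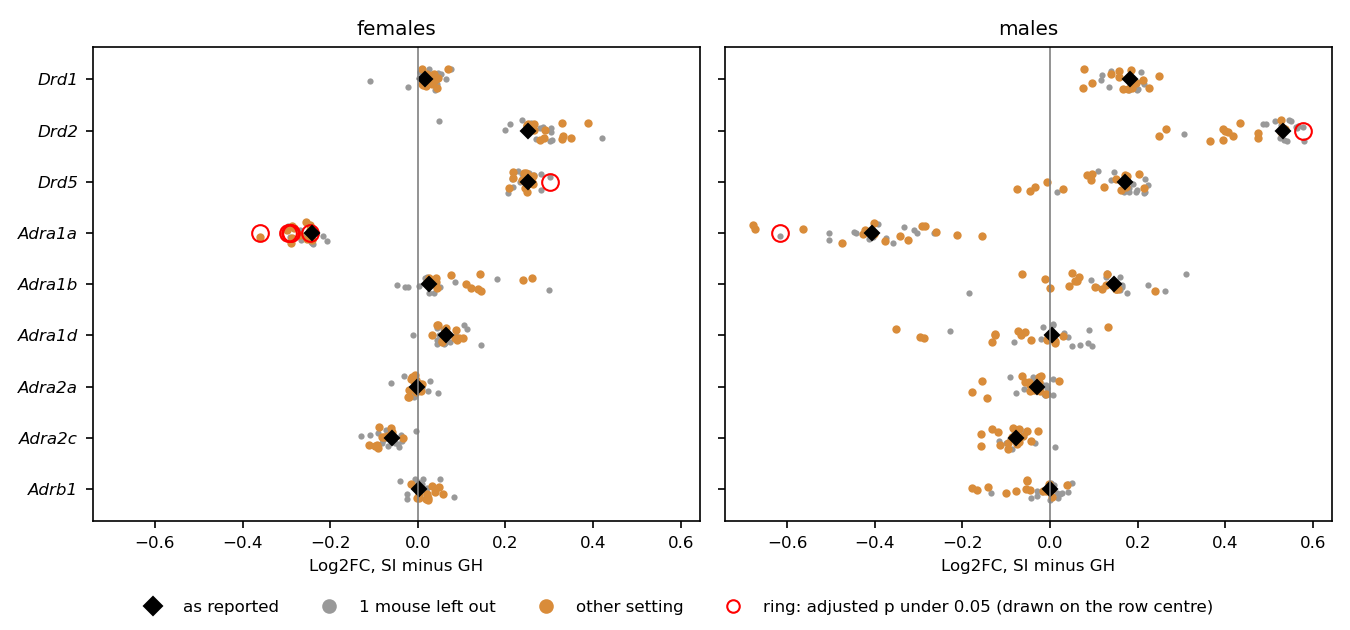
Log2FC of SI minus GH for each receptor, in females (left) and males (right), as reported (black), with 1 mouse left out (grey) and under each other setting (orange); red rings mark an adjusted p under 0.05. Adra1a stays below 0 throughout (-0.36 to -0.21 for females, -0.68 to -0.16 for males), whereas Adra1d in males spans -0.35 to 0.13.

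In GH mice alone, the sexes were compared to describe the receptors without isolation. Adrb1 was lower in females and was the only 1 of 9 members called, where 1035 of 16391 genes (6.31%) were called by edgeR, 3.31% higher and 3.01% lower in females. GH females had from 19.0 to 26.9 CPM with a median of 22.8 CPM, and GH males from 23.2 to 31.0 CPM with a median of 26.3 CPM. The Log2FC, females less males, was -0.20 (SE 0.0612) with an adjusted p of 0.0443, and the difference of mean log2 CPM was -0.21 (two-sided exact permutation p = 0.0087, unadjusted). The call did not hold without surrogate variables (adjusted p = 0.542 from edgeR), without the filter on low counts (0.0673) or in a fit that left out SI males 25, 33 and 39 (0.249).

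An unadjusted p under 0.05 in GH mice was found for 4 of the 9 members, all lower in females, beside 26.4% of all genes. Apart from Adrb1 these were Drd5 (Log2FC -0.20), Adra1d (-0.20) and Adra2a (-0.14), with adjusted p of 0.182, 0.11 and 0.187 from edgeR. The members' median was -0.14, that of all genes 0.00. Adra1a had the opposite sign, at 0.16 with an adjusted p of 0.274. Among the marker lists, all 6 dentate granule cell genes (median -0.19) and 7 of 8 interneuron genes (median -0.15) were also lower in females, with 1 of each called, and their part in the receptor differences was not tested. This comparison shares its GH females and GH males with the housing comparisons, so these values are not independent of those.

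The genes whose levels followed each receptor most closely over the mice were found by Pearson's r of log2 CPM after subtracting group means, among 15770 genes tested in both sexes. Since they are the highest of so many, the values are a description. Adra1d went with Fbxo21, Wscd2 and Bcl7a (r of 0.98, 0.98 and 0.97 over 30 mice, and 0.93, 0.94 and 0.91 over the 27 without SI males 25, 33 and 39). Drd5 went with Camkk1, Gpc1 and Creg2 (0.92 for each, and 0.86 to 0.89 over 27 mice). For Adra1a they were ENSMUSG00000095403, Sbf2 and Arhgef12 (0.95, and 0.86 to 0.87 over 27 mice), and for Adrb1 they were Ephb6, Kcnj9 and Insm1 (0.89 to 0.90, and 0.71 to 0.75). Closest to Adra2a were Tmem132e, Ttll12 and Rnf216 (0.83 to 0.86, and 0.71 to 0.77), and to Adra2c were Lrrc68, Btbd2 and Dact3 (0.82 to 0.84, and 0.81 to 0.84).

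Partners of Drd2, Adra1b and Drd1 are given also without the 2 mice farthest from the median of the receptor. Drd2 went with Chrna3, a nicotinic receptor subunit, Ret, a receptor tyrosine kinase, and Irx1, a homeobox factor (r of 0.75 to 0.76, 0.74 to 0.77 over the 27 mice, and 0.62 to 0.72 without the 2 mice farthest from the median of Drd2). Adra1b went with Zdhhc22 and Cxx1b (0.85 and 0.80, and 0.72 for each in the same way). Drd1 went with Camk2d, a subunit of a calcium-dependent kinase (0.66, and 0.51 without the 2 mice farthest from the median of Drd1). Among the members themselves, Drd5 and Adra1d were the closest pair over the 27 mice (r = 0.82), followed by Drd2 and Adra1b (0.66). Drd1 and Drd5, the D1-like receptors, had an r of -0.47 over the 27 mice and of -0.19 over all 30. SI female 41, the highest mouse for Drd1 (7.1 CPM), was the lowest SI female for Drd5 (7.46 CPM). Pairs of members were not computed without the farthest mice. All these libraries share the same tissue and scaling, and differ in depth.

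The 5 pathway lists hold genes of signalling and desensitization downstream of the receptors, and genes for making, moving and breaking down catecholamines. Of their 76 tested genes, 11 (14.5%) were called in females, all lower except Arrb2, where 3.89% of all genes were called. Without surrogate variables edgeR called 0 of them, along with 0 of all genes, where DESeq2 without them called 401 of all genes. With the position digit of the titles as a factor, edgeR also called 0 of them, and the Log2FC of each kept its sign. The count was 2 without SI female 68 and 16 without GH female 78. In males 0 of the 74 tested were called by edgeR, at most 3 were called under the other settings, and 19 were called without SI male 27. The lists were chosen with earlier results of these data known, so the share called is no test of them.

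Receptor desensitization was the list with the most calls, 4 lower and 1 higher of 12 genes. Grk3, a kinase that phosphorylates active receptors, fell with a Log2FC of -0.26 (SE 0.0466, adjusted p = 0.00875 from edgeR). The arrestins, which bind phosphorylated receptors, went apart, since Arrb1 fell (-0.24, adjusted p = 0.00971) while Arrb2 rose (0.16, adjusted p = 0.0413). Arrb2 was past the threshold in 5 of 13 other settings and in 7 of 15 fits with 1 mouse left out. Arrb1 was past it in 11 and 14 of these. Ppp1r9b, a spine scaffold also called spinophilin that binds D2 and alpha-2 receptors, fell (-0.28, adjusted p = 0.0122), as did the scaffold Slc9a3r1 (-0.21, adjusted p = 0.0327). With 1 mouse left out, Ppp1r9b was called in 12 of 15 fits and Slc9a3r1 in 8. In males the Log2FC of Grk3, Arrb1, Arrb2, Ppp1r9b and Slc9a3r1 was -0.31, -0.24, 0.19, -0.29 and -0.14, of the same sign but not called.

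In the Gq list, to which the alpha-1 receptors couple, 3 of 13 genes fell. They were Plcb3, a phospholipase C (-0.21, adjusted p = 0.0296), and the inositol trisphosphate receptors Itpr1 (-0.19, adjusted p = 0.0265) and Itpr2 (-0.22, adjusted p = 0.0339). Of 22 genes of the Gs list, 1 fell, the adenylyl cyclase Adcy5 (-0.27, adjusted p = 0.0287), and of 17 of the Gi/o list 1 fell, the G protein subunit Gnai2 (-0.17, adjusted p = 0.0127). With 1 mouse left out, Gnai2 was called in 14 of 15 fits, Itpr1, Itpr2 and Adcy5 in 8 each and Plcb3 in 7. The medians of the 3 lists were 0.02, 0.00 and 0.04, near the 0.01 of all genes.

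Of 12 genes for making, moving and breaking down catecholamines, Maob, a monoamine oxidase that breaks down dopamine, was the only one called in females. It fell by 0.28 on the log2 scale (SE 0.0538, adjusted p = 0.0103 from edgeR), and had -0.09 in males. The enzymes of synthesis were low, with means of 0.792 CPM for Th, the rate-limiting enzyme, and 0.513 CPM for Dbh, which makes noradrenaline. Ddc, which also serves serotonin, had 6.79 CPM.

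Maob and Itpr2 are among the pathway genes known to be expressed in astrocytes. The 7 astrocyte markers were all lower in SI females, 4 of them called, and summed to 4420.0 to 6260.0 CPM in SI females against 5360.0 to 7260.0 CPM in GH females (difference of -0.30 in mean log2, two-sided exact permutation p = 0.00435, adjusted p = 0.053 over 22 tests). In males the sums were 3480.0 to 5940.0 and 4850.0 to 6680.0 CPM (-0.35, two-sided exact permutation p = 0.0106, adjusted p = 0.0742), and the difference was -0.20 without SI males 25, 33 and 39 (two-sided exact permutation p = 0.115). Their part in the pathway values was not tested.

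**Figure D5:**
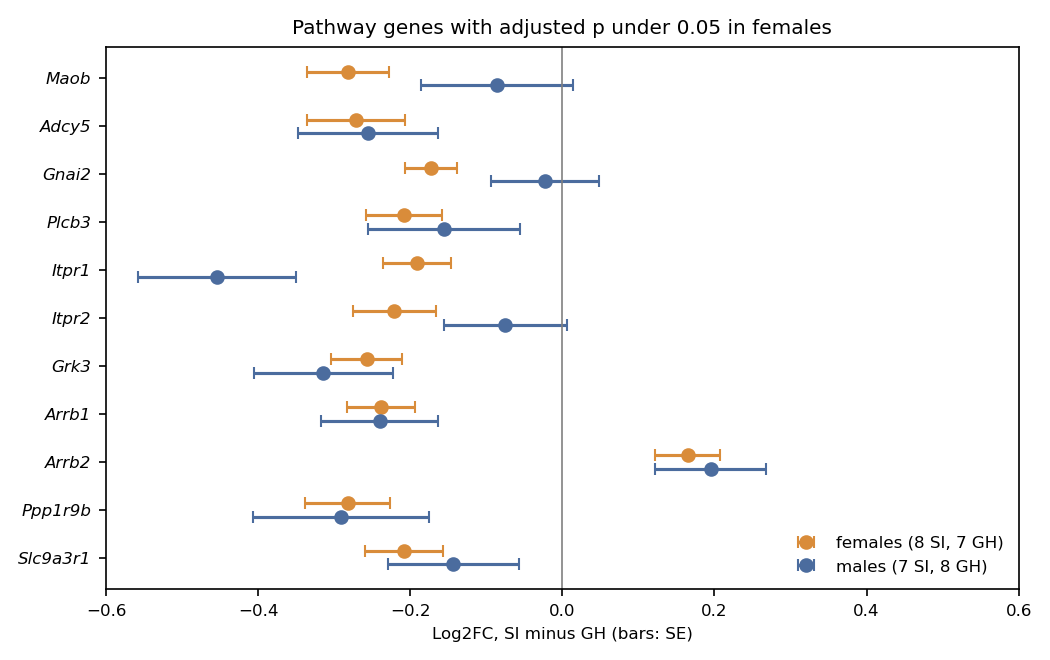
Log2FC of SI minus GH with its SE for the 11 pathway genes called in females (orange) and the same genes in males (blue). Arrb2 alone lies above 0 (0.16 and 0.19), and Maob, Gnai2 and Itpr2 are closer to 0 in males (-0.09, -0.02 and -0.08) than in females; the difference between the sexes was not called for any of them.

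In GH mice, 9 of the 76 tested genes of these lists (11.8%) were called between the sexes by edgeR, where 6.31% of all genes were called. Maob (0.39), Adcy5 (0.26), Plcb3 (0.25), Itpr1 (0.25), Itpr2 (0.25) and Arrb1 (0.24) were higher in females, and Arrb2 (-0.22), Prkaca (-0.16) and Pde1b (-0.16) lower. The GH females enter both this comparison and the female housing comparison, so the 7 genes named in both are not independent observations. Without surrogate variables 0 of the 9 were called by edgeR, and in the fit without SI males 25, 33 and 39 only 1, Maob, was called. In the same comparison all 7 astrocyte markers were higher in females, 3 of them called, with a median Log2FC of 0.30. Their part in these differences was not tested.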

How the data were processed

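The table the authors deposited holds whole-number counts for each gene in each mouse, not normalized. The submitters' processing notes name Trimmomatic 0.39, Salmon 1.8.0 and DESeq2 1.24.0, and the build GRCm39. All 30 columns were matched to mice by name. Symbols were found for 94.1% of gene IDs and transcript lengths (GENCODE vM1, NCBIM37) for 91.3%. The lists and members were chosen with earlier results of these data known.

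The fits used edgeR 4.0.16 in R 4.3.3, separately for females and males. Low genes were dropped with filterByExpr (at least 10 counts, total of 15) and libraries scaled by TMM. Surrogate variables from sva 3.50.0 (3 in females, 2 in males, 4 over all 30 mice) entered glmQLFit and glmQLFTest, with Benjamini-Hochberg adjustment over all genes and a threshold of 0.05. They can absorb differences that go with housing. CPM are per TMM-scaled library over all 30 mice, and log2 CPM used a prior count of 2. Single values were tested by exact permutation of the mice. All tests took each mouse as independent, although GH mice shared cages, and the sample titles do not name the cages. Alternatives were DESeq2 1.42.0, limma 3.58.1 (voom), other numbers of surrogate variables, filters and scalings, the position digit of the titles, and mice left out. The limma fits and those with the position digit carried no surrogate variables. Genes named were the members, the other receptors of the families, pathway genes past the threshold and the 3 genes most like each member. Some items that this rule names are not reported here. Total counts per library were 18809307 to 100844898, and member counts per mouse went down to 35. The steps were tested on simulated data.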

Additional observations from a re-analysis of the deposited data

Results flagged for a closer look

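In 4 of the 36 combinations of a member and a group, 1 mouse lay further from the rest than Dixon's test allows at the 95% level. Chance alone gives about 1 in 20 such groups. SI female 41 was high for Drd1, with 7.1 CPM against 3.28 to 4.23 CPM in the other SI females. She was also high for Drd2, with 6.16 CPM against 1.95 to 3.12 CPM. SI male 38 was high for Drd2, with 5.2 CPM against 2.67 to 3.57 CPM in the other SI males, and for Adra1b, with 13.1 CPM against 4.92 to 7.34 CPM. These animals had the highest sums of thalamic markers (211.0 and 198.0 CPM), whose part in the receptor levels was not tested.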

How the results depend on the processing

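Between SI and GH mice, Adra1a and Drd2 kept their direction in both sexes under each setting and with each mouse left out. The count of members called in females was 1, which was Adra1a, by DESeq2 with the same surrogate variables, by limma-voom and with the length and GC trend removed, and 0 to 1 with 1 mouse left out. In males it was 0 to 2 with 1 mouse left out, both Drd2 (0.58) and Adra1a (-0.62) being called without SI male 27. In GH mice the count fell to 0 without surrogate variables, without a filter and without SI males 25, 33 and 39. Of all genes, 0 to 1262 were called in females and 0 to 304 in males over the other settings, 88 to 1427 and 0 to 2414 with 1 mouse left out, and in the interaction 0 to 7. Without surrogate variables 0 genes were called in either sex by edgeR, and 16 between the sexes in GH mice.

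Some values changed sign, none with an adjusted p under 0.05. Not all of them were near 0 in the main fits. Those gave 0.17 for Drd5 and 0.15 for Adra1b in males, and -0.22 for Drd2 and -0.11 for Adra1b between the sexes in GH mice. In females the sign turned for Adra2a with 2 surrogate variables (0.008), limma-voom (0.0101) and no filter (0.004). It also turned for Adrb1 with no filter (-0.001) and with at least 1 CPM in 7 mice (-0.015). In males Adra1d was at -0.296, -0.0724, -0.0426 and -0.0658 with 0, 1, 3 and 4 surrogate variables, -0.288 by DESeq2 without them, -0.126 by limma-voom, -0.0078 with no filter, -0.0037 with at least 1 CPM in 7 mice, -0.351 with the position digit, -0.0581 with the trend removed, -0.125 without SI males 25, 33 and 39 and -0.131 without SI male 38 as well. Drd5 was at -0.045 without surrogate variables, -0.035 by DESeq2 without them, -0.075 with the position digit and -0.008 without SI males 25, 33, 38 and 39. Adra1b was at -0.0643 with all groups in 1 fit and -0.0115 without the 3 males. Adrb1 was at 0.0039 by DESeq2, 0.0054 with its size factors and 0.0384 without the 3 males and surrogate variables, where Adra2a was at 0.0215. In the interaction Adra2a was at -7e-04 by DESeq2 and Adra1a at -0.0347 without the 3 males, and in GH mice Drd2 and Adra1b were then at 0.0037 and 0.0895. The cause was not tested. DESeq2 gave no adjusted p for Drd2 in males. Fits without the 3 males and without surrogate variables, or without SI male 38 as well, and marker sums without the 3 males were chosen after seeing the data.

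With each mouse left out in turn, females ranged from -0.109 to 0.0755 for Drd1, -0.0484 to 0.299 for Adra1b, -0.0105 to 0.144 for Adra1d, -0.0614 to 0.0472 for Adra2a and -0.0399 to 0.0834 for Adrb1. Males ranged from -0.185 to 0.31 for Adra1b, -0.228 to 0.0967 for Adra1d, -0.092 to 0.0076 for Adra2a, -0.117 to 0.0101 for Adra2c and -0.134 to 0.0503 for Adrb1. No paired analysis was possible because the groups share no replicate numbers, each being the number of 1 animal.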
